A study of Mus musculus with 8 samples.

Results

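The Sox genes encode transcription factors related to the sex-determining factor Sry. The mRNA of 10 of them (Sox4, Sox6, Sox7, Sox8, Sox9, Sox11, Sox12, Sox13, Sox17 and Sox18) was examined, out of 23337 gene symbols, in RNA sequencing of MOE cells, an epithelial line from the mouse oviduct. The genes were picked by symbol after results of this same experiment were known, so their differences between substrates are given as a description and the 10 are not a sample of all genes. All libraries come from this single line of FVB strain background, and the mouse oviduct is the counterpart of the human fallopian tube. Cells were taken up with trypsin when confluent and kept for 6 h in MOE medium lacking EGF. The substrate was 2D collagen for 4 libraries and 3D collagen for the other 4, and nothing else in the labels separates them. By its title the study concerns how cancer of the fallopian tube spreads to the ovary. Whether replicates were separate cultures is not stated, and the p-values therefore rest on a spread between libraries that may be technical.

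Sox proteins bind DNA through an HMG box, a domain that fits the minor groove and bends the helix, and they act with partner factors that help to set which genes they control. They are grouped by sequence. The SoxC factors Sox4, Sox11 and Sox12 act in progenitor cells and many tumours. The SoxD factors Sox5, Sox6 and Sox13 lack an activation domain of their own and dimerise through a coiled coil. The SoxE factors Sox8, Sox9 and Sox10 are activators with roles in testis, cartilage, neural crest and epithelial stem cells. The SoxF factors Sox7, Sox17 and Sox18 act in endothelium and endoderm, and Sox17 is also a marker of oviductal and Müllerian epithelium, where it works with Pax8.

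Values are normalized counts, meaning reads divided by a size factor of the library. Depth ranged from 15692699 to 25862036 reads per library. Differences were fitted with limma on log2(normalized count + 1) over the 11820 genes that reached a value of 10 in 4 or more libraries, with Benjamini-Hochberg adjustment over all of them, and "called" means an adjusted p under 0.05. Of these genes 5.72% were called, 2.33% higher and 3.39% lower on 3D collagen, and 59.3% of the calls were lower, a share that was 39.0% when libraries were scaled by their total reads alone. Keratin and Pax8 mRNA was abundant (Krt7 from 62581 to 116561 and Pax8 from 7427 to 11569), while the epithelial adhesion genes Epcam (0 to 29.9) and Cdh1 (17.4 to 104) and the oviductal glycoprotein gene Ovgp1 (1.19 to 27.2) were low. In the deviations from group means, 2D replicate 4 and 3D replicate 4 went together, with a correlation across genes of 0.81. Traces of 8 intestine genes, chosen after the data were seen, were highest in 2D replicate 2 (a summed normalized count of 430), 3D replicate 1 (207) and 3D replicate 2 (123), and were 2.74 to 45.9 in the other libraries.

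On 3D collagen the SoxE pair moved in opposite directions: Sox8 mRNA fell about 10-fold and Sox9 mRNA rose about 3-fold. Sox13 and the SoxD gene Sox6 had lower means, but neither was called. The SoxC genes Sox4, Sox11 and Sox12 were detected in every library and were not called. The SoxF genes Sox7, Sox17 and Sox18 had 1 read each over the 8 libraries. Thus 7 of the 10 genes had enough reads to be tested, 1 was called higher and 1 lower. The groups did not overlap for 3 of the 7, with Sox9 higher and Sox8 and Sox13 lower, as against 8.05% (higher) and 10.4% (lower) of all tested genes. The values of this contrast were known when the genes were picked, and nothing is read from these counts. The median log2 fold change was −0.25 over the 7 tested Sox genes and 0.02 over all genes tested.

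**Figure D1:**
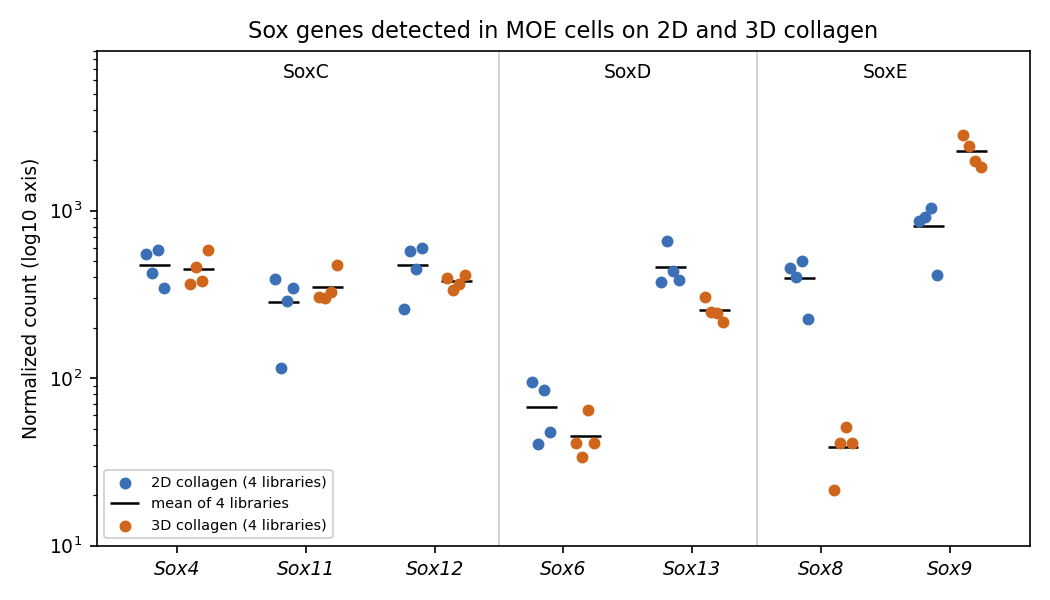
Normalized counts (log10 axis) of the 7 tested Sox genes in the 4 libraries on 2D collagen (blue) and the 4 on 3D collagen (orange), with black bars for group means. The groups are apart for Sox8, Sox9 and Sox13 and overlap for Sox4, Sox11, Sox12 and Sox6.

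Stretches of DNA just before the transcription start are shown for 3 members, since they let the reader see the regions from which transcripts of different behaviour start. They are Sox8, which fell, Sox13, which had a lower mean without a call, and Sox4, whose means were nearly equal. RefSeq promoter entries (GRCm38.p6) were matched for 6 of the 10 genes, Sox4, Sox6, Sox8, Sox11, Sox12 and Sox13. Sox7, Sox9, Sox17 and Sox18 had none. Each run is the 250 bases that precede the RefSeq start site, 5′ to 3′ on the strand of the gene, and all 3 genes lie on the minus strand. The GENCODE genes used for the other positions start elsewhere in 2 cases, so that 165 bases of the Sox13 run and 14 of the Sox4 run lie inside the GENCODE gene, and 0 of the Sox8 run. The positions are chr17:25570687-25570936 for Sox8, chr1:133424213-133424462 for Sox13 and chr13:28953700-28953949 for Sox4. Capitals mark matches, on either strand, to 7 short motifs named in the next paragraph.
Sox8: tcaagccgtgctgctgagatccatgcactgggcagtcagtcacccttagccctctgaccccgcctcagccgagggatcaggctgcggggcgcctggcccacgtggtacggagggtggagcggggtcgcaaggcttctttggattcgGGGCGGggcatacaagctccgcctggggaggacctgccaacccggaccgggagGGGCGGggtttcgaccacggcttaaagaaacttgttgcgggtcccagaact
Sox13: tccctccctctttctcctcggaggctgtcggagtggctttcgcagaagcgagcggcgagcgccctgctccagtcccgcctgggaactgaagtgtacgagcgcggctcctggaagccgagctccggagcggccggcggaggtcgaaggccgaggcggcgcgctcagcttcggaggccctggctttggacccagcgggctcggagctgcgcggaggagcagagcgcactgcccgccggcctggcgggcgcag
Sox4: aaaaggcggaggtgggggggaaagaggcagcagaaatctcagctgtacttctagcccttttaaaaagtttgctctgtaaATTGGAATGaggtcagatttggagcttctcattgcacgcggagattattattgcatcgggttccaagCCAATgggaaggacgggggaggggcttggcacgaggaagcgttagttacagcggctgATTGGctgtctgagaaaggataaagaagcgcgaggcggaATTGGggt

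The motifs searched on both strands were the Sox core ACAAT, the core ACAAAG that Sox and TCF factors can share, the TEAD motif GGAATG, the AP-1 motif TGANTCA, the GC box GGGCGG, the CCAAT box CCAAT and the TATA box TATAAA. The Sox8 window held 2 GC boxes, at positions −104 and −51 from the start site, and none of the other 6 motifs. The Sox13 window held none of the 7. The Sox4 window held 4 CCAAT boxes, at −171, −104, −47 and −8, and 1 TEAD motif at −168 that overlaps the first of them. Among all 32851 windows of this length in the table, the GC box was present in 32.7%, CCAAT in 33.8%, GGAATG in 12.6%, TGANTCA in 6.75%, TATAAA in 12.4%, ACAAT in 27.7% and ACAAAG in 16.5%. GC content was 65.6% for Sox8, 72.4% for Sox13 and 50.8% for Sox4, against a median of 52.4% for all windows. A match of letters is a description and does not show binding.

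Sox8 (chromosome 17, 25565892 to 25570686, GRCm38, minus strand, 3 exons) encodes a SoxE activator known from testis and neural crest. Its normalized counts were 455, 400, 500 and 224 in 2D replicates 1 to 4 and 21.5, 41.0, 51.3 and 41.2 in 3D replicates 1 to 4. The groups were far apart: the highest 3D library (51.3) lay far under the lowest 2D library (224). Sox8 fell from 395 ± 121 to 38.8 ± 12.5 (mean ± SD, n = 4 per group), a log2 fold change of −3.32 with a 95% interval from −4.11 to −2.53 (limma adjusted p = 0.00232 over all genes tested). Of all 11820 tested genes only 6 had a lower log2 fold change. Counting error is small beside this difference, since the 2D libraries had from 183 to 632 Sox8 reads and the 3D libraries from 19 to 55. Leaving out each library in turn left the log2 fold change between −3.57 and −3.07, called every time. In bulk libraries, fewer cells that hold an mRNA and less of it per cell cannot be told apart.

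An antisense gene, 2810468N07Rik, overlaps 10.6% of the exonic bases of Sox8, and the strand setting of the read counting is not given in the sources used here. That gene had 3.68 to 11.9 normalized counts on 2D and 1.83 to 6.11 on 3D collagen, with a ratio of means, 3D over 2D, of 0.363. Its part in the Sox8 values was not tested. Read in the same direction, no stretch of 50 bases in Sox8 transcripts occurred in a transcript of another gene. The same was true of the other members except Sox7, where 0.0615% of such stretches did, none of them in another Sox gene. Reverse complements were not searched, so overlaps with antisense genes are not covered by this search.

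Sox9 (chromosome 11, 112782224 to 112787760, plus strand, 3 exons) encodes the SoxE factor that drives cartilage and testis differentiation and marks stem and progenitor cells of several epithelia. Its normalized counts were 863, 914, 1038 and 413 in 2D replicates 1 to 4 and 2814, 2425, 1966 and 1823 in 3D replicates 1 to 4. Every 3D library exceeded every 2D library, and 2D replicate 4 stood low in its group. Sox9 rose from a mean of 807 ± 273 to 2257 ± 452, or by 1.54 on the log2 scale, with a 95% interval from 0.89 to 2.19 (limma adjusted p = 0.0197). The call is lost without 3D replicate 1 (limma adjusted p = 0.0633), 3D replicate 2 (0.0688) or 3D replicate 3 (0.0630). With any single library left out the log2 fold change lay between 1.25 and 1.69, lowest without 2D replicate 4.

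The intestine genes are set beside Sox9 because crypt cells of that organ express it. The library with the most, 2D replicate 2 (430), had Sox9 at 914, and 2D replicate 3 (45.9) had the highest Sox9 on 2D collagen, at 1038. On 3D collagen Sox9 was at 2814 and 2425 in replicates 1 and 2 (intestine sums of 207 and 123) and at 1966 and 1823 in replicates 3 and 4 (11.2 and 2.74). The part of intestine RNA in these values was not tested. Without the 3 libraries highest in intestine genes, a choice made after the data were seen that leaves 5 libraries, the log2 fold change was 1.40 for Sox9 (limma adjusted p = 0.179) and −2.99 for Sox8 (limma adjusted p = 0.0530). Under that setting 14 of all tested genes were called, and Sox8, Sox9 and Sox13 were the 3 Sox genes with an unadjusted limma p under 0.05. Among all tested genes 822 higher and 1005 lower genes also had an unadjusted p under 0.05. Nothing is read from the count of Sox genes in this setting.

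**Figure D2:**
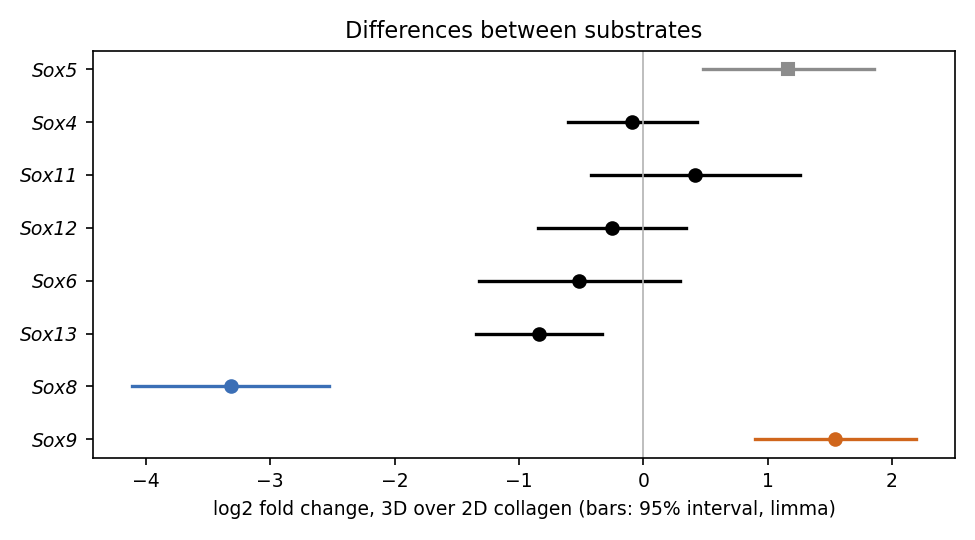
Log2 fold change of each tested Sox gene, 3D over 2D collagen, with its 95% interval from limma (blue, called lower; orange, called higher; black, not called; grey square, Sox5, which is outside the 10 genes). Sox8 at −3.32 and Sox9 at 1.54 lie on opposite sides of 0, and the intervals of Sox4, Sox6, Sox11 and Sox12 include 0.

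Because Sox8 and Sox9 differ in length, their levels were set side by side as normalized counts per kb of exon. On 2D collagen Sox8 stood at 127 ± 38.7 and Sox9 at 195 ± 66.0 per kb, and the ranges over the 4 libraries overlapped. On 3D collagen Sox8 stood at 12.4 ± 4.00 and Sox9 at 546 ± 109 per kb. The ratio of Sox9 to Sox8 per kb was 1.43, 1.72, 1.57 and 1.39 in 2D replicates 1 to 4 and 98.6, 44.6, 28.9 and 33.4 in 3D replicates 1 to 4. The ratio varied little on 2D collagen, although both levels in 2D replicate 4 (71.9 and 99.9 per kb) were the lowest of that group. The share of Sox9 in the sum of both was 60.3% ± 2.32 on 2D and 97.6% ± 1.02 on 3D collagen. The summed level of the pair was 172 to 411 per kb on 2D and 454 to 687 per kb on 3D collagen, so the groups did not overlap in the sum either. Sox10, the remaining SoxE gene, had no read in any library.

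**Figure D3:**
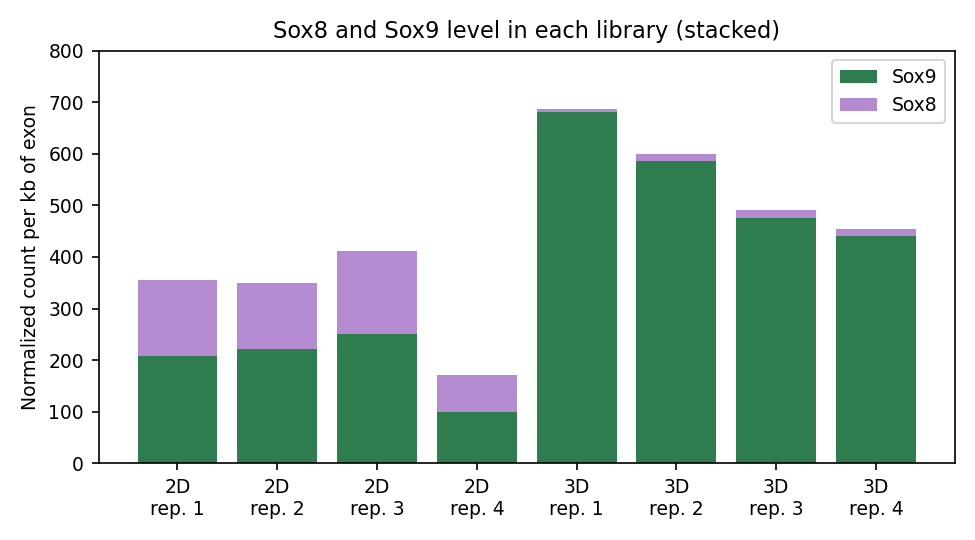
Normalized count per kb of exon of Sox9 (green) and Sox8 (purple), stacked, in each of the 8 libraries. Sox8 makes up a visible part of the bar in every 2D library and a thin cap in every 3D library, where Sox9 holds 96.7% to 99.0% of the sum.

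None of the SoxD genes was called. Sox13 (chromosome 1, 133382303 to 133424377, minus strand), which encodes a SoxD factor known from T cells, had normalized counts of 373, 659, 438 and 385 in 2D replicates 1 to 4 and 305, 250, 245 and 217 in 3D replicates 1 to 4. All 3D libraries lay under all 2D libraries, as was so for 10.4% of all tested genes in this direction, and 2D replicate 2 was highest. The means were 464 ± 133 and 254 ± 36.7, with a log2 fold change of −0.84, a 95% interval from −1.34 to −0.33 and a limma adjusted p of 0.0609. On the recovered reads DESeq2 called it (adjusted p = 0.00761), as it did 13.4% of all tested genes, and edgeR did not (adjusted p = 0.0650).

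Sox6 (chromosome 7, 115470872 to 116038796, minus strand), a repressor and cartilage cofactor that works with Sox5 and Sox9, had 94.4, 40.6, 85.4 and 47.8 normalized counts in 2D replicates 1 to 4. In 3D replicates 1 to 4 it had 40.8, 34.1, 64.4 and 41.2. The groups overlapped, and 2D replicates 1 and 3 were the highest of all. Its log2 fold change was −0.51, with a 95% interval from −1.32 to 0.29 (limma adjusted p = 0.420). Without 2D replicate 1 the value was −0.32. The libraries had 34 to 108 Sox6 reads each.

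Sox5, the third SoxD gene and not among the 10, went the other way. It had 30.2, 16.7, 32.4 and 18.4 normalized counts on 2D and 60.0, 57.6, 47.6 and 51.2 on 3D collagen in replicates 1 to 4, with no overlap. Its log2 fold change was 1.17, with a 95% interval from 0.48 to 1.85 and a limma adjusted p of 0.0568, which missed the threshold. It passed with library size as the scaling (limma adjusted p = 0.0426), which moved the median log2 fold change of all genes from 0.02 to 0.19. DESeq2, which called 13.4% of all tested genes, gave an adjusted p of 0.0177, while edgeR gave 0.0532. As a level per kb, Sox13 made up 88.1% to 97.5% of the SoxD sum in every library. The exon lengths of Sox5 and Sox6 join many alternative exons, so their levels per kb are low estimates.

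No SoxC gene was called, and for each the groups overlapped. Sox4 (chromosome 13, 28948919 to 28953713, minus strand, 1 exon), a factor of progenitors and carcinomas, had 552, 424, 584 and 346 normalized counts on 2D and 364, 464, 378 and 583 on 3D collagen in replicates 1 to 4. The ranges were almost the same. The log2 fold change was −0.09, with a 95% interval from −0.60 to 0.43 (limma adjusted p = 0.853), and its sign turned with library size as the scaling (0.09). An antisense gene model, Gm26735, overlaps 54.6% of the exonic bases of Sox4, and reads of both could not be separated without strand.

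Sox11 (chromosome 12, 27334264 to 27342574, minus strand, 1 exon), best known from developing neurons and mantle cell lymphoma, had 390, 115, 287 and 343 normalized counts on 2D and 304, 301, 325 and 476 on 3D collagen in replicates 1 to 4. 2D replicate 2 was low and 3D replicate 4 high. The log2 fold change was 0.42, with a 95% interval from −0.42 to 1.26 (limma adjusted p = 0.537), and without 2D replicate 2 it was 0.03. Sox12 (chromosome 2, 152393611 to 152398063, minus strand, 1 exon), the least studied SoxC factor, had 260, 573, 448 and 601 normalized counts on 2D and 395, 338, 365 and 412 on 3D collagen. The 3D libraries lay within the range of the 2D libraries, of which replicate 1 was lowest. The log2 fold change was −0.25, with a 95% interval from −0.84 to 0.35 (limma adjusted p = 0.611). It was −0.51 without 2D replicate 1, −0.13 without 2D replicate 2, −0.11 without 2D replicate 4 and −0.08 with library size as the scaling. The intervals do not show that these genes were level: that of Sox12 reaches down to −0.84, the value of Sox13, and that of Sox11 up to 1.26. Summed per kb, the SoxC genes stood at 239 ± 16.4 on 2D and 220 ± 34.3 on 3D collagen.

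**Figure D4:**
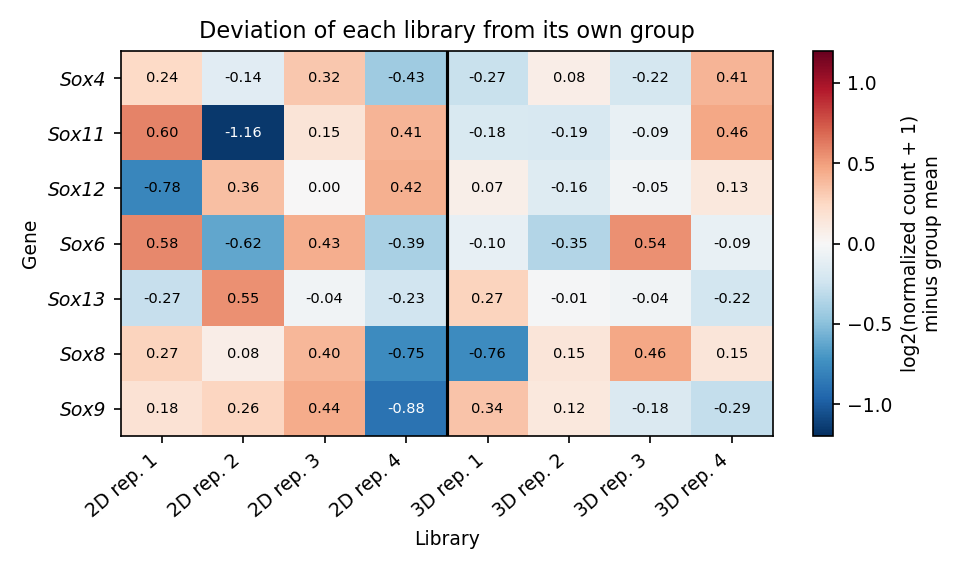
Deviation of each library from the mean of its own group, in log2(normalized count + 1), for the 7 tested Sox genes (red above, blue below the group mean). 2D replicate 2 is low for Sox11 (−1.16) and Sox6 (−0.62) and high for Sox13 (0.55), and 2D replicate 4 is low for Sox8 (−0.75) and Sox9 (−0.88).

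Libraries of one group did not rank alike across the Sox genes, as the plot of deviations from group means shows. 2D replicate 4 was the lowest of its group for Sox8, Sox9 and Sox4 and the highest for Sox12. Among 3D libraries, replicate 1 was lowest for Sox8 (−0.76) and highest for Sox9 (0.34) and Sox13 (0.27). The spread within groups was largest for Sox11, above that of 78.6% of all tested genes, and smallest for Sox13, above that of 39.7%.

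The SoxF genes were at the limit of detection. Sox7 had 1 read, in 3D replicate 1, Sox17 had 1 read, in 2D replicate 4, and Sox18 had 1 read, in 2D replicate 1. In a library with no read, a count of 0 allows up to 3 reads, or 2.37 to 3.68 normalized counts, for counting error only. No fold change is given for them. Pax8, the partner of Sox17 in oviductal epithelium, was abundant at 10271 ± 1404 on 2D and 9494 ± 1518 on 3D collagen, with a log2 fold change of −0.12 that was not called (limma adjusted p = 0.723). Of 8 endothelial markers, Pecam1, Tek, Tie1 and Emcn were under 10 normalized counts in every library, Cdh5 reached 17.9 and Vwf 26.3. The 2 that could be tested were Kdr (272 to 702) and Esam, whose means were 21.8 on 2D and 44.6 on 3D collagen (limma adjusted p = 0.166). Of the other Sox genes, Sox1, Sox2, Sox3, Sox10, Sox14, Sox30 and Sry had no read, Sox15 had 2 and Sox21 had 6 over the 8 libraries.

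Ordered by level per kb on 2D collagen, the genes ran Sox9, Sox8, Sox13, Sox12, Sox4, Sox11, Sox6 and Sox5. Each neighbouring pair from Sox9 down to Sox4 overlapped in range, and the steps from Sox4 to Sox11 (34.2 ± 14.5), from Sox11 to Sox6 (4.52 ± 1.81) and from Sox6 to Sox5 (1.70 ± 0.56) did not. On 3D collagen the order was Sox9, Sox4, Sox12, Sox13, Sox11, Sox8, Sox5 and Sox6. There Sox9 stood clear of Sox4 (a mean of 93.2), and Sox8 had moved from the second to the sixth place, with no overlap with its neighbours Sox11 and Sox5. Among 10709 tested genes with a known exon length, Sox9 went from percentile 62.9 to 83.4 of mean level per kb, and Sox8 from 53.7 to 12.3.

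Genes whose pattern over the 8 libraries lay closest to each SoxE gene were found by the root-mean-square difference of gene-centred log2 values. For Sox8 they were the kinase Nuak2 (0.36), the ligand Fgf18 (0.38) and the small GTPase Rasl11b (0.39), against a median of 1.77 over all genes. Fgf18 had 178, 173, 165 and 125 normalized counts on 2D and 13.6, 15.7, 22.4 and 10.1 on 3D collagen, as with Sox8 lowest on 2D in replicate 4. For Sox9 they were the adaptor Nck2 (0.19), Tbc1d8 (0.19) and beta-2-microglobulin (B2m, 0.21), against a median of 0.96. B2m had 2970, 2284, 3506 and 1563 normalized counts on 2D and 8841, 9737, 7718 and 5540 on 3D collagen. These genes were taken as the closest of all tested, so a difference under the median follows from the choice. Closeness here reflects the difference between substrates as well as the spread within them.

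Lists of genes tied to Sox proteins are described next, beside the 5.72% of all tested genes that limma called. Of the cartilage genes that Sox9 binds together with Sox5 and Sox6, 2 of 13 had enough reads to be tested and neither was called or had an unadjusted p under 0.05, which 24.2% of all tested genes had. The log2 fold change of Col11a2 was 0.94 at a limma adjusted p of 0.303, and that of Comp 0.21 at 0.845. Acan and Col2a1, which define cartilage, were at 0 to 0.873 and 3.40 to 16.5 normalized counts. Of 5 reported SoxC targets 4 were tested and 1 was lower: the neuronal tubulin Tubb3 stood at 116 ± 46.8 on 2D and 29.1 ± 10.4 on 3D collagen, and limma gave −1.95 on the log2 scale (adjusted p = 0.0273). Removing any one of 5 libraries (replicates 1 and 4 on 2D, 1, 2 and 3 on 3D collagen) ends this call, with limma adjusted p between 0.0524 and 0.0853. The other tested SoxC targets, Tead2, Ezh2 and Sema3c, were not called, and of these Tead2 had an unadjusted p under 0.05 (−0.45 on the log2 scale, limma adjusted p = 0.206). Of 10 reported SoxF targets 5 were tested and none was called by limma. The adhesion gene Vcam1 had 274, 134, 187 and 33.1 normalized counts on 2D and 1348, 1297, 1670 and 216 on 3D collagen in replicates 1 to 4, so that only 3D replicate 4 fell within the 2D range. Its log2 fold change was 2.85, with a 95% interval from 1.10 to 4.60 (limma adjusted p = 0.0648), and edgeR and DESeq2 called it, as they did 5.73% and 13.4% of all tested genes. The receptor gene Notch1 stood at 676 ± 212 on 2D and 662 ± 165 on 3D collagen, with a limma adjusted p of 0.996. The medians of the tested members of these lists were 0.57, −0.14 and 0.02, against 0.02 over all genes.

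The TCF and LEF factors, which share the HMG box and carry the Wnt signal to DNA, had 3 of 4 members tested and 1 called. Tcf7 stood at 223 ± 71.9 on 2D and rose to 489 ± 120 on 3D collagen, which is 1.16 on the log2 scale (limma adjusted p = 0.0430), and kept the call without 2D replicate 3 but not without any other single library (limma adjusted p from 0.0508 to 0.133). Lef1 and Tcf7l2 had log2 fold changes of 0.54 and 0.68 without a call. Of 18 cofactors and modifiers of Sox proteins all were tested and none was called by limma or edgeR. An unadjusted limma p under 0.05 was reached by 6 of them (24.2% of all tested genes), and DESeq2 called 3, Ppargc1a, Arid5b and Ctnnb1 (13.4% of all tested genes). The most abundant of them were beta-catenin (Ctnnb1, 14267 ± 3438 on 2D and 23207 ± 1229 on 3D collagen, limma adjusted p = 0.0521) and the ubiquitin ligase Wwp2, which binds Sox9 (6803 ± 1793 and 5491 ± 1117, limma adjusted p = 0.456). Of 10 partner factors 4 were tested and none was called or had an unadjusted limma p under 0.05, the most abundant being Pax8 and Pax2 (limma adjusted p = 0.302).

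Markers of other cell types that the Sox genes are known from were set beside these results. Neural crest and glial markers summed to 103 to 221 normalized counts on 2D and 138 to 222 on 3D collagen, nearly all of it Erbb3, which epithelia also express, while Sox10 and Foxd3 were at 0. Chondrocyte markers summed to at most 29.9 and 23.8, with Matn1 at 0. Fibroblast markers summed to 57.6 to 371 and 67.7 to 333. Of these 6 markers 3 were tested and 1 was called. Pdgfra rose from 4.65 ± 2.40 to 16.6 ± 1.88 (limma adjusted p = 0.0340), at 3 to 18 reads per library. Col1a1 had a lower mean on 3D collagen (72.5 and 41.6, limma adjusted p = 0.253). So had the untested Col1a2 (5.46 and 1.17) and Pdgfrb (5.52 and 2.57). The mean of Dcn was 97.6 on 2D and 116 on 3D collagen (limma adjusted p = 0.690). Its libraries ran from 3.68 to 299 on 2D and from 13.7 to 274 on 3D collagen, highest in replicate 1 and lowest in replicate 4 of each group. Lum was at 0 to 1.13. Leukocyte markers summed to 397 to 810 and 444 to 716, nearly all of it Cd68 and Csf1r, with Ptprc at 0 to 3.73. Csf1r did not overlap between groups (252 to 433 on 2D, 127 to 222 on 3D collagen, limma adjusted p = 0.0813, called by DESeq2), while the mean of Cd68 was higher on 3D collagen (277 and 441, limma adjusted p = 0.207). Endothelial markers summed to 290 to 637 and 323 to 795, and the groups overlapped in each of these sums. Of 8 epithelial markers 7 were tested and 1 was called lower, Krt8 (34270 ± 5557 to 20133 ± 3079, limma adjusted p = 0.0397). Krt7 and Krt18 did not overlap between groups either (limma adjusted p = 0.183 and 0.136). Their means were lower on 3D collagen, and 10.4% of all tested genes lay apart in this direction. DESeq2 called Krt8 and Krt18 but not Krt7, and it called 13.4% of all tested genes. The groups overlapped for Krt19, Cdh1, Pax8 and Ovgp1, with log2 fold changes of −0.11, −0.08, −0.12 and 0.76, and for the untested Epcam. The calls of Pdgfra and Krt8 were lost without most single libraries, and the part of these markers in the Sox values was not tested.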

How the data were processed

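The submitters' processing notes name HTSeq 0.6.1p1, DESeq2 and the mm10 build, while aligner, annotation and strand setting are not given in the sources. The deposited signal per gene proved to be whole reads scaled by a size factor for each library: 100% of values were whole multiples of 1 read within 0.001 reads, and the factors matched recomputed median-of-ratios factors to within 3.4e-09. The main test was limma 3.58.1 (R 4.3.3) with a trended, robust prior on log2(normalized count + 1); folds on this scale understate changes of low genes. edgeR 4.0.16 and DESeq2 1.42.0 on the recovered reads were alternatives, and edgeR called 677 genes. The fit was tested on simulated data, and alternatives included other scalings, filters, pseudocounts and each library left out.

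The 10 members, the gene lists and the tests were chosen with earlier results of these data known. Named genes were the 10 members, up to 4 called genes of each list (or its 2 most abundant) and the 3 genes nearest to Sox8 and Sox9; the others were named after their values were seen. One gene that this rule names is not reported here. All listed symbols were found, Cnmd as Lect1. Positions and exon lengths came from GENCODE M21 on GRCm38, the mm10 build, and promoters from RefSeq.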

Additional observations from a re-analysis of the deposited data

Results flagged for a closer look

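Of 36 groups of 4 libraries screened for a sample far from the others, 2 held one, where chance gives about 1 in 20. Sox11 stood high in 3D replicate 4 at 476 normalized counts, against 301 to 325 in the other 3D libraries. Rasl11b, one of the genes closest to Sox8 in pattern, stood high in 3D replicate 3 at 741, against 354 to 408 in the other 3D libraries.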

How the results depend on the processing

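Sox8 was lower and Sox9 higher on 3D collagen under all 20 alternatives, with log2 fold changes from −3.62 to −2.99 and from 1.25 to 1.72. Sox13 stayed between −0.93 and −0.65. Leaving out 1 library at a time, the Sox genes called higher numbered 0 to 1 and those called lower 1, while all genes called higher numbered 44 to 267 and lower 104 to 370. With library size as the scaling 498 genes were higher, and the median log2 fold change over all genes was 0.19 in place of 0.02. DESeq2 called 708 higher and 871 lower, and 2 Sox genes lower, Sox13 being the second. Same-numbered libraries did not all go together (correlations of −0.17, 0.37, 0.25 and 0.81), and not every library correlated best with its own number, so the numbers were not taken as pairs. With the replicate block limma called 663 higher and 742 lower, with 2 Sox genes lower (Sox13 at adjusted p = 0.0443), and edgeR called 718 and 643, with 1 Sox gene lower (Sox13 at 0.0547). Sox5 was called under both (0.0473 and 0.0417). Added after the data were seen, leaving out both libraries numbered 4 gave 171 higher. Leaving out the 3 libraries highest in intestine genes, which leaves 5, gave 0 higher and 14 lower genes and 0 and 0 Sox genes by limma, with 822 and 1005 genes at an unadjusted p under 0.05. No other tool was run on those 5. The log2 fold change of Sox4 turned sign with library size (0.0862), and ranged from −0.23 to 0.0209 with 1 library left out, positive without 2D replicate 3 or 3D replicate 1. Depth limits the SoxF genes, at 1 read each. The causes of these shifts were not tested.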
